A study of Homo sapiens with 9 samples.

Results

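The genes described here were 10 genes of the integrated stress response, namely ATF4, DDIT3, TRIB3, PPP1R15A, CHAC1, ASNS, PSAT1, PHGDH, DDIT4 and SESN2. They were chosen by gene symbol, as well-known members of the ATF4 pathway, with earlier results of these data known. They were 10 of the 60966 genes in the tables, and all 10 were among the 14985 genes that reached 1 FPKM in at least 3 samples and were therefore tested. RNA-seq was performed on H1299, a human non-small cell lung cancer cell line grown in culture, after depletion of FIBP, a protein that binds fibroblast growth factor FGF1 inside the cell. The 3 groups were cells transfected with a scrambled siRNA (Scramble, n = 3), with a first siRNA against FIBP (Si-FIBP#1, n = 3) and with a second one (Si-FIBP#2, n = 3). All 9 samples came from the same line, all went through transfection and were harvested at the same time after it, so an untransfected level is not part of the comparison. The samples of a group are labelled as numbered replicates of 1 line, and the labels do not say whether they were separate transfections. The p-values rest on the spread between samples within groups, estimated jointly over all 9.

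In the integrated stress response, kinases that sense amino acid shortage, misfolded protein, viral RNA or heme deficiency phosphorylate the translation factor eIF2α. General protein synthesis then falls, while the ATF4 mRNA, which carries upstream open reading frames, is translated better. The ATF4 protein dimerises with C/EBP family proteins and switches on genes for amino acid synthesis and import, for feedback on eIF2α and for growth arrest. Because much of this control acts on ATF4 translation, the mRNA levels given below do not report the amount of ATF4 protein.

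ATF4 acts through C/EBP-ATF response elements, whose core is TGATGNAA on either strand. RefSeq promoter sequences (GRCh38.p14, from 250 bases before to 50 bases after a transcript start) were matched for 10 of the 10 genes, in 15 windows. The core was present in the windows of 2 of the 10 genes, ASNS and CHAC1, and in those of 1217 of 27305 genes overall (4.46%). The stretches below are the 100 bases before the start of the 3 amino acid synthesis genes, which all fell with both siRNAs, and the site in CHAC1, whose level did not fall. Matches to the core are in capitals and each sequence is on the strand of its gene.
ASNS, chr7:97872409-97872508, minus strand: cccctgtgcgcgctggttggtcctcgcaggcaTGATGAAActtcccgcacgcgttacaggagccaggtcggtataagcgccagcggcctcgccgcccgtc
PSAT1, chr9:78297025-78297124, plus strand: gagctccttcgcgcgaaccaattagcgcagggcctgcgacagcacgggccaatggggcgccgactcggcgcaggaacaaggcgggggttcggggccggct
PHGDH, chr1:119711834-119711933, plus strand: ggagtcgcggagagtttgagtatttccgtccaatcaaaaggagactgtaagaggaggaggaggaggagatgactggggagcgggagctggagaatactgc
CHAC1, chr15:40953251-40953280, plus strand: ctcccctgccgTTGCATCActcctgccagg

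The match in ASNS lay 68 to 61 bases before the RefSeq transcript start of its window and read in the direction of the gene. The match in CHAC1 lay 209 to 202 bases before that of its own window and read on the opposite strand. The ER stress element, a longer motif bound in the unfolded protein response, was on either strand in none of the windows of the 10 genes and in those of 25 of 27305 genes (0.0916%). A match or its absence describes only the letters in these windows, not binding by ATF4.

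The target of the siRNAs was checked first. FIBP was 88.38, 79.49 and 77.74 FPKM (fragments per kilobase of transcript, scaled to library size) in the 3 Scramble samples, 7.49, 7.77 and 4.30 FPKM after Si-FIBP#1, and 7.13, 5.92 and 8.21 FPKM after Si-FIBP#2. All 6 depleted samples were far below all 3 controls. On the scale of log2(FPKM + 1), on which all fold changes here are given, FIBP fell, with a change of −3.50 ± 0.18 (SE) after Si-FIBP#1 and −3.36 ± 0.18 after Si-FIBP#2 (limma, adjusted p = 9.4e-07 and 1.42e-06). The libraries were of similar depth, between 20550000 and 24500000 fragments as estimated from the steps between low FPKM values. Of 5 epithelial markers, KRT8 and KRT18 were above 1 FPKM and KRT19, EPCAM and CDH1 were not, and the markers of lung adenocarcinoma lineage (4 genes), fibroblasts (5 genes) and leukocytes or endothelium (6 genes) did not reach 1 FPKM in 3 samples. The summed level of the epithelial markers was 575 to 588 FPKM in Scramble, 265 to 302 FPKM after Si-FIBP#1 and 210 to 282 FPKM after Si-FIBP#2, and that of the fibroblast markers 0.21 to 0.89, 1.0 to 1.75 and 1.06 to 3.22 FPKM. Their part in the results below was not tested, and in these bulk samples fewer cells of a kind cannot be told apart from less RNA per cell.

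FIBP depletion with either siRNA was accompanied by lower ATF4 mRNA and by lower mRNA of the amino acid synthesis enzymes ASNS, PHGDH and PSAT1, while SESN2 was higher and TRIB3, CHAC1 and DDIT4 did not pass the test with either siRNA. A gene passed where the adjusted p was below 0.05 and was called where the fold change also exceeded 2. After Si-FIBP#1, 2 of the 10 genes were called, both lower, against 5.66% of all tested genes (2.55% higher, 3.11% lower), and after Si-FIBP#2 the same 2 genes, ASNS and PHGDH, were called, against 5.05% (2.92% higher, 2.13% lower). The ASNS calls did not hold when ASNS was summed with an overlapping gene, as described below. After Si-FIBP#1, 6 of 10 passed, 1 higher and 5 lower, where 47.7% of all genes passed, 27.8% higher and 19.9% lower. After Si-FIBP#2 also 6 of 10 passed, 1 higher and 5 lower, where 48.8% of all genes passed, 31.1% higher and 17.7% lower. By level alone, 9 of the 10 genes had no overlap with Scramble after Si-FIBP#1, 3 higher and 6 lower, where 58.9% of all genes had none (34.5% higher, 24.3% lower), and 7 had none after Si-FIBP#2, 2 higher and 5 lower, where 57.3% had none (36.1% higher, 21.2% lower). The median log2 fold change of the 10 genes was −0.45 after Si-FIBP#1 and −0.26 after Si-FIBP#2, beside 0.073 and 0.11 for all genes tested. Both comparisons use the same 3 Scramble samples, so they are not independent of each other. Scaling the libraries by median ratios instead changed the shares of all genes that passed to 24.1% higher and 22.7% lower after Si-FIBP#1, and to 23.9% higher and 22.9% lower after Si-FIBP#2, and under it 1 of the 10 genes passed higher with each siRNA while 6 and 5 passed lower.

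**Figure D1:**
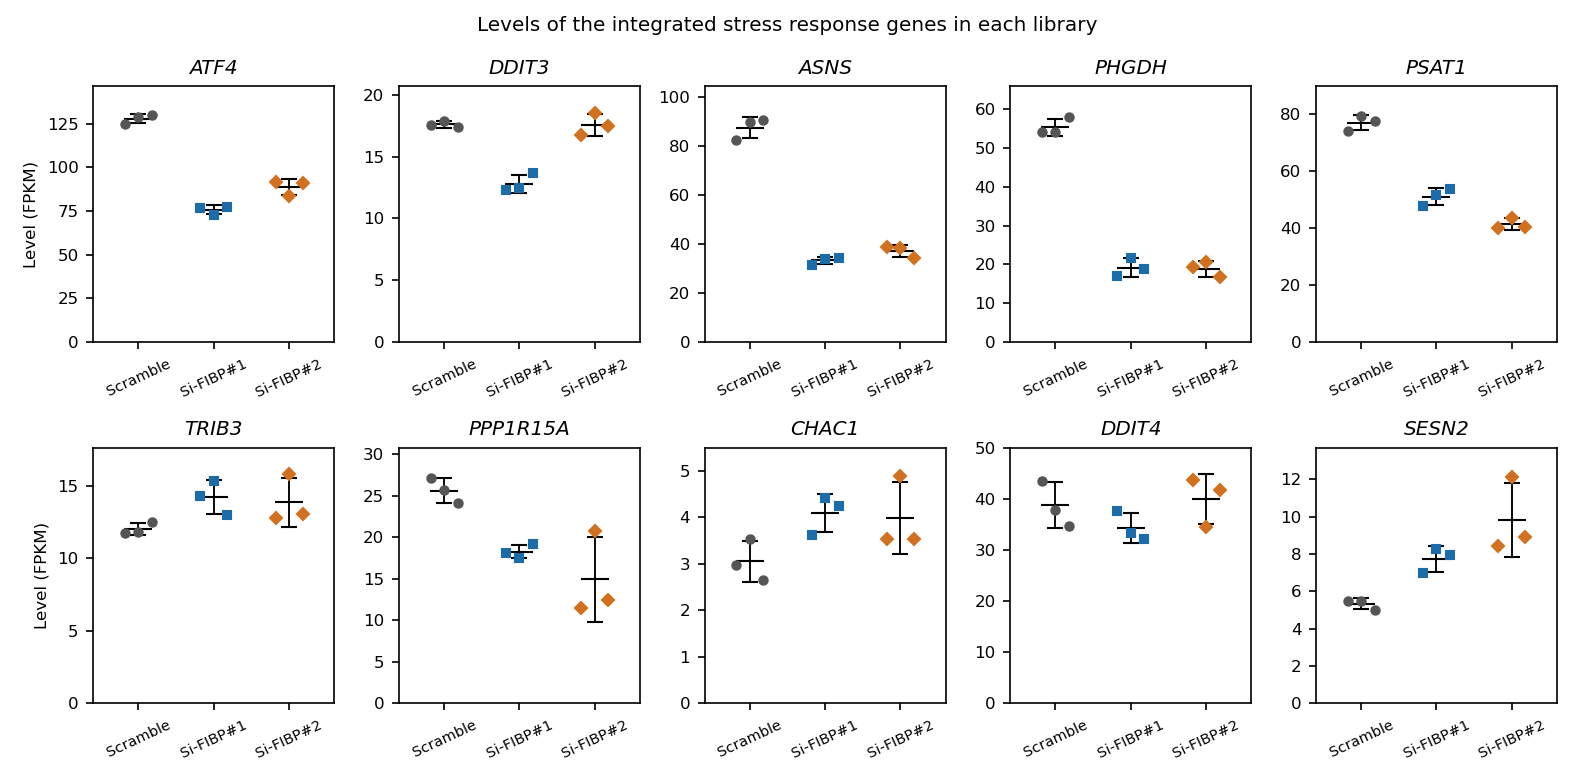
Level (FPKM, axes from 0) of each of the 10 genes in the 9 libraries, 1 panel per gene; points are libraries, and the bars give the mean ± SD of the 3 libraries of a group. ATF4, ASNS, PHGDH and PSAT1 are lower in all 6 depleted libraries than in any Scramble library, SESN2 is higher in all 6, and the groups overlap for DDIT4.

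ATF4 (ENSG00000128272, GRCh38 chr22:39519695-39522685, plus strand), the transcription factor at the centre of the pathway, was 124.89, 128.72 and 129.73 FPKM in Scramble, 76.78, 72.62 and 77.48 FPKM after Si-FIBP#1, and 91.31, 83.44 and 91.02 FPKM after Si-FIBP#2. The 3 groups did not overlap, with Scramble highest and Si-FIBP#1 lowest. From a control mean of 127.8 ± 2.55 FPKM (SD, n = 3), the level went to 59.2% after Si-FIBP#1 (75.6 ± 2.63 FPKM) and to 69.3% after Si-FIBP#2 (88.6 ± 4.46 FPKM). ATF4 thus fell by 0.75 ± 0.051 (SE, log2) and 0.52 ± 0.051, with adjusted p = 3.95e-06 and 3.73e-05. The depleted groups also differed from each other, ATF4 being 0.22 higher after Si-FIBP#2 (log2, 95% interval 0.11 to 0.34, adjusted p = 0.0176), but this difference passed under 13 of 18 analysis settings and not without Si-FIBP#1 replicate 2 (adjusted p = 0.0714), without Si-FIBP#2 replicate 1 or 3 (0.0595 and 0.0709), with median ratio scaling (0.0576) or in a fit of both siRNA groups only (0.0507). Most of the ATF4 signal was assigned to a pair of transcripts, ENST00000396680 (1486 nt) and ENST00000404241 (1910 nt). The first was 67.94, 72.69 and 76.33 FPKM in Scramble, and all 6 depleted samples lay lower, between 37.46 and 49.00 FPKM. The second was 43.15 to 45.10 FPKM in Scramble, 24.76 to 26.41 FPKM after Si-FIBP#1 and 34.03 to 35.30 FPKM after Si-FIBP#2, so that the gap between the siRNAs was seen in this transcript.

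DDIT3 (ENSG00000175197, chr12:57516588-57521737, minus strand) encodes CHOP, a C/EBP-related factor that is induced by ATF4 and linked to cell death under lasting stress. It was 17.58, 17.92 and 17.39 FPKM in Scramble, 12.33, 12.44 and 13.66 FPKM after Si-FIBP#1, and 16.74, 18.52 and 17.51 FPKM after Si-FIBP#2. The Si-FIBP#1 samples were below all others, whereas the Scramble and Si-FIBP#2 samples overlapped. DDIT3 fell by 0.43 ± 0.065 (log2) after Si-FIBP#1 (adjusted p = 5.04e-04). After Si-FIBP#2 the difference was −0.0041 (95% interval −0.15 to 0.14, adjusted p = 0.965). The depleted groups differed by 0.43 (0.28 to 0.58, adjusted p = 0.00312), and this passed under 18 of 18 settings. Averaged over both siRNAs, DDIT3 fell by 0.22 (adjusted p = 0.00904), a mean of these unequal differences that did not pass when the samples of both siRNAs were fitted as 1 group, so that the gap between the siRNAs counted as spread (adjusted p = 0.198). In GENCODE release 29 the 3′ end of DDIT3 overlaps MARS1, a methionyl-tRNA synthetase gene on the opposite strand with a mean of 115.6 ± 24.5 FPKM in Scramble, and the strand of the reads is not stated, so reads of this stretch could count for either gene. The 5′ end of DDIT3 overlaps MBD6, also on the opposite strand, which rose by 0.36 after Si-FIBP#1 (adjusted p = 0.0293) and was at 0.069 after Si-FIBP#2 (adjusted p = 0.661), while MARS1 was at 0.17 and 0.31 (adjusted p = 0.305 and 0.0777). The part of these overlaps in the DDIT3 values was not tested.

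The largest decreases of the 10 genes with both siRNAs were those of PHGDH and ASNS as deposited (for ASNS the place depended on a gene that overlaps it, as described below), and all 3 amino acid synthesis genes fell with both. PHGDH (ENSG00000092621, chr1:119648411-119744226, plus strand), which catalyses the first step of serine synthesis, was 54.10, 54.11 and 57.98 FPKM in Scramble, 17.03, 21.69 and 18.90 FPKM after Si-FIBP#1, and 19.39, 20.53 and 16.68 FPKM after Si-FIBP#2. Its level was therefore 34.7% and 34.1% of Scramble, and the 2 depleted groups overlapped. PHGDH fell by 1.49 ± 0.097 (log2) after Si-FIBP#1 and by 1.51 ± 0.097 after Si-FIBP#2 (adjusted p = 3.22e-06 and 3.62e-06), and the difference between the siRNAs was −0.023 (95% interval −0.24 to 0.20, adjusted p = 0.905). Among the 14985 tested genes, ordered from the largest decrease, PHGDH was at place 116 after Si-FIBP#1 and at place 63 after Si-FIBP#2. The tables list 34 transcripts for PHGDH. The most abundant, ENST00000641023 (1866 nt), was 15.98 to 18.53 FPKM in Scramble and 3.53 to 5.30 FPKM in the 6 depleted samples. Not every transcript fell, as the retained-intron transcript ENST00000496756 (508 nt) was 1.29 to 6.38 FPKM in Scramble and 1.78 to 4.97 FPKM in the depleted samples.

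PSAT1 (ENSG00000135069, chr9:78297143-78330093, plus strand), the aminotransferase of the second step of serine synthesis, was 73.90, 79.14 and 77.57 FPKM in Scramble, 47.67, 51.52 and 53.70 FPKM after Si-FIBP#1, and 39.82, 43.62 and 40.31 FPKM after Si-FIBP#2. Here Si-FIBP#2 was lowest, and no group overlapped another. PSAT1 fell by 0.58 ± 0.061 (log2) and 0.88 ± 0.061 (adjusted p = 5.32e-05 and 4.97e-06), to 66.3% and 53.7% of Scramble. The further decrease after Si-FIBP#2 was −0.30 (95% interval −0.43 to −0.16, adjusted p = 0.0114) and passed under 18 of 18 settings. PSAT1 and ATF4 thus differed between the siRNAs in opposite directions. PSPH, the phosphatase of the last step, is named here after its values were seen. It was 27.6 ± 1.34 FPKM in Scramble, 31.1 ± 1.49 FPKM after Si-FIBP#1 and 24.3 ± 0.74 FPKM after Si-FIBP#2, a log2 difference of 0.17 (adjusted p = 0.0428) and −0.17 (adjusted p = 0.0392). These PSPH differences, neither of which was called, were not stable. They passed under 7 and 9 of 18 settings and each no longer passed on leaving out any of 6 samples.

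ASNS (ENSG00000070669, chr7:97852118-97872542, minus strand), which makes asparagine and whose promoter window holds the core shown above, was 82.36, 89.67 and 90.37 FPKM in Scramble, 31.58, 33.93 and 34.23 FPKM after Si-FIBP#1, and 38.54, 38.42 and 34.38 FPKM after Si-FIBP#2. The highest depleted sample was far below the lowest control. ASNS fell by 1.37 ± 0.065 (log2) and 1.22 ± 0.065 (adjusted p = 6.61e-07 and 1.34e-06), to 38.0% and 42.4% of Scramble. The difference between the siRNAs was 0.15 (95% interval 0.0080 to 0.30, adjusted p = 0.147). The most abundant transcript, ENST00000394308 (2385 nt), was 34.15 to 38.48 FPKM in Scramble and 10.00 to 12.66 FPKM in the 6 depleted samples.

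The size of the ASNS decrease depended on how the locus was read. A non-coding gene on the same strand, AC079781.5, runs through ASNS and shares 1985 exonic bases with it, 44.6% of the ASNS exons in GENCODE release 29. These bases are 46.2% of the AC079781.5 exons, so a sum of both genes also counts exons that are not part of ASNS. AC079781.5 moved the other way, from 12.78, 12.76 and 13.19 FPKM in Scramble to 22.07, 22.02 and 22.64 FPKM after Si-FIBP#1 and 19.27, 20.74 and 22.63 FPKM after Si-FIBP#2. It rose by 0.74 and 0.65 (log2, adjusted p = 2.07e-05 and 4.94e-05). Reads from the shared exons cannot be given to one or the other with certainty. The sum of both genes, an alternative added after the data were seen, was 100.4 ± 4.57 FPKM in Scramble, 55.5 ± 1.66 FPKM after Si-FIBP#1 and 58.0 ± 1.09 FPKM after Si-FIBP#2. The sum fell by 0.84 and 0.78 (log2, adjusted p = 1.87e-06 and 3.5e-06), less than a 2-fold change, so that with it ASNS would still pass the test but not be called. After Si-FIBP#2 this decrease was smaller than that of PSAT1 (0.88) and close to that of PPP1R15A (0.78).

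**Figure D2:**
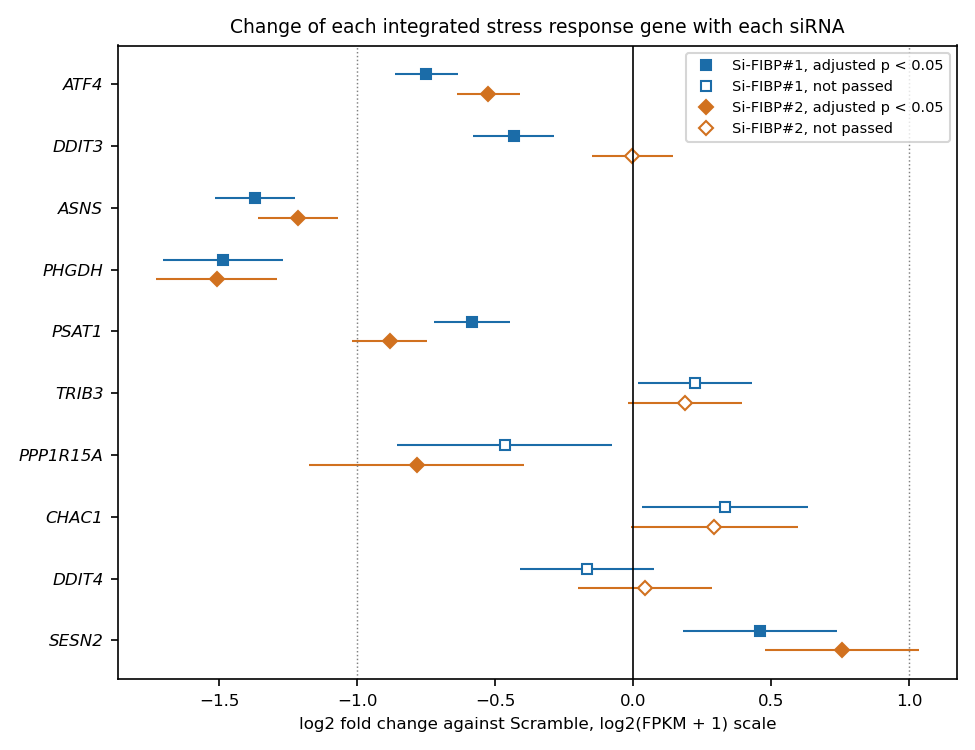
Log2 fold change against Scramble (log2(FPKM + 1) scale) of each of the 10 genes after Si-FIBP#1 (squares) and Si-FIBP#2 (diamonds); lines are 95% confidence intervals, filled symbols passed the test and dotted lines mark a 2-fold change. PHGDH and ASNS are beyond the 2-fold line with both siRNAs, and DDIT3 is at −0.43 after Si-FIBP#1 and at −0.0041 after Si-FIBP#2.

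Of the feedback genes, PPP1R15A passed lower after Si-FIBP#2 and TRIB3 passed after neither siRNA. CHAC1 also passed after neither. PPP1R15A (ENSG00000087074, chr19:48872392-48876057, plus strand) encodes GADD34, the phosphatase cofactor that removes phosphate from eIF2α. It was 27.12, 25.69 and 24.10 FPKM in Scramble, 18.15, 17.55 and 19.15 FPKM after Si-FIBP#1, and 11.55, 20.79 and 12.47 FPKM after Si-FIBP#2. All depleted samples were below the controls, and replicate 2 of Si-FIBP#2 stood well above the other 2 of its group. PPP1R15A fell by 0.78 ± 0.17 (log2) after Si-FIBP#2 (adjusted p = 0.00447), and by 1.03 without that replicate. After Si-FIBP#1 the difference was −0.47 (95% interval −0.85 to −0.076) and did not pass (adjusted p = 0.0502), but passed with adjusted p = 4.67e-04 when replicate 2 of Si-FIBP#2, which enters the common estimate of the spread, was left out (0.0325 without replicate 1 of Si-FIBP#2). It also passed with TPM scaling (adjusted p = 0.0405), median ratio scaling (0.0268), the filter of 5 FPKM (0.039) and a fit of the 2 groups compared (8.56e-04). Likewise the difference between the siRNAs was −0.32 (adjusted p = 0.255) with that replicate and −0.57 (adjusted p = 0.00133) without it. Its constitutive paralog PPP1R15B was 8.91 ± 0.17 FPKM in Scramble, 11.8 ± 1.23 FPKM after Si-FIBP#1 and 12.97 ± 0.24 FPKM after Si-FIBP#2, and rose by 0.37 and 0.50 (log2, adjusted p = 0.00388 and 6.72e-04).

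TRIB3 (ENSG00000101255, chr20:362835-397559, plus strand), a pseudokinase that is induced by ATF4 and CHOP and restrains them, was 11.73, 11.82 and 12.46 FPKM in Scramble, 14.30, 15.34 and 12.99 FPKM after Si-FIBP#1, and 12.78, 15.81 and 13.01 FPKM after Si-FIBP#2. All 6 depleted samples were above all controls, but the log2 differences of 0.22 (95% interval 0.017 to 0.43) and 0.19 (−0.019 to 0.39) did not pass (adjusted p = 0.0718 and 0.12). Both siRNAs together gave 0.21 (0.026 to 0.39, adjusted p = 0.0536). TRIB3 passed after Si-FIBP#1 when Si-FIBP#1 replicate 3 or Si-FIBP#2 replicate 2 was left out (adjusted p = 0.0486 and 0.0276), and with both siRNAs together without Si-FIBP#1 replicate 3 or Si-FIBP#2 replicate 1 (0.0371 and 0.041). TRIB3 also passed after Si-FIBP#1 in a fit of the 2 groups compared (0.0419), and with both siRNAs together under the filter of 5 FPKM (0.0458), with Ensembl transcripts only (0.0419) and with the replicate number as a block (0.048).

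CHAC1 (ENSG00000128965, chr15:40952962-40956519, plus strand), an enzyme that degrades glutathione, was the lowest of the 10 genes per length. It was 2.97, 3.54 and 2.66 FPKM in Scramble, 3.63, 4.42 and 4.24 FPKM after Si-FIBP#1, and 3.54, 4.89 and 3.54 FPKM after Si-FIBP#2, which corresponded to an estimated 60 to 123 fragments per library. The Si-FIBP#1 samples were above all controls and those of Si-FIBP#2 touched them. The log2 differences of 0.33 (95% interval 0.030 to 0.63) and 0.29 (−0.0085 to 0.60) did not pass (adjusted p = 0.0676 and 0.0985). With both siRNAs together it was 0.31 (adjusted p = 0.0459), which passed under 8 of 17 settings and was lost without Scramble replicate 1 or 3, Si-FIBP#1 replicate 2 or 3, or Si-FIBP#2 replicate 2 (adjusted p = 0.112, 0.174, 0.0875, 0.0794 and 0.0623). Without Si-FIBP#2 replicate 2, CHAC1 passed after Si-FIBP#1 (adjusted p = 0.0341), as it did with the replicate number as a block (0.034) and in a fit of the 2 groups compared (0.0485). The transcripts of CHAC1 are given as a description, without a test. ENST00000617768 (1520 nt) was 1.58, 1.55 and 2.27 FPKM in Scramble, 2.59, 3.38 and 3.74 FPKM after Si-FIBP#1, and 2.45, 3.91 and 2.94 FPKM after Si-FIBP#2, above the controls in all 6 samples. ENST00000487220 (853 nt) was 1.25, 1.71 and 0.39 FPKM in Scramble, 0.78, 0.60 and 0 FPKM after Si-FIBP#1, and 0.50, 0.47 and 0 FPKM after Si-FIBP#2, so its groups overlapped.

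SESN2 and DDIT4 both restrain the growth kinase mTORC1, SESN2 as a leucine sensor and DDIT4 (REDD1) through the TSC complex. SESN2 (ENSG00000130766, chr1:28259527-28282491, plus strand) was 5.51, 5.51 and 5.02 FPKM in Scramble, 6.98, 8.28 and 7.93 FPKM after Si-FIBP#1, and 8.43, 12.10 and 8.93 FPKM after Si-FIBP#2. No group overlapped another, and replicate 2 was the highest of Si-FIBP#2. SESN2 rose by 0.46 ± 0.12 (log2) after Si-FIBP#1 and by 0.76 ± 0.12 after Si-FIBP#2 (adjusted p = 0.0130 and 8.54e-04), to 145% and 184% of Scramble. The difference between the siRNAs was 0.30 (95% interval 0.018 to 0.58) and did not pass (adjusted p = 0.143). Its paralog SESN1, named after its values were seen, rose by 0.45 after Si-FIBP#2 (adjusted p = 0.0041), with a difference of −0.26 for Si-FIBP#1 (adjusted p = 0.0548, and 0.0408 and 0.0348 without Si-FIBP#1 replicate 3 and Si-FIBP#2 replicate 2). With pseudocount 0.1, TPM scaling and median ratio scaling SESN1 also passed lower after Si-FIBP#1 (0.0459, 0.0355 and 0.0345).

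DDIT4 (ENSG00000168209, chr10:72273920-72276036, plus strand) was 43.67, 37.98 and 34.82 FPKM in Scramble, 37.65, 33.36 and 32.17 FPKM after Si-FIBP#1, and 43.85, 34.52 and 41.73 FPKM after Si-FIBP#2. The 3 groups overlapped. The log2 difference was −0.17 (95% interval −0.41 to 0.076, adjusted p = 0.232) after Si-FIBP#1 and 0.042 (−0.20 to 0.29, adjusted p = 0.774) after Si-FIBP#2, and the sign of the second depended on the scaling. DDIT4-AS1, which lies on the opposite strand within DDIT4, was listed at 0 in every sample.

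**Figure D3:**
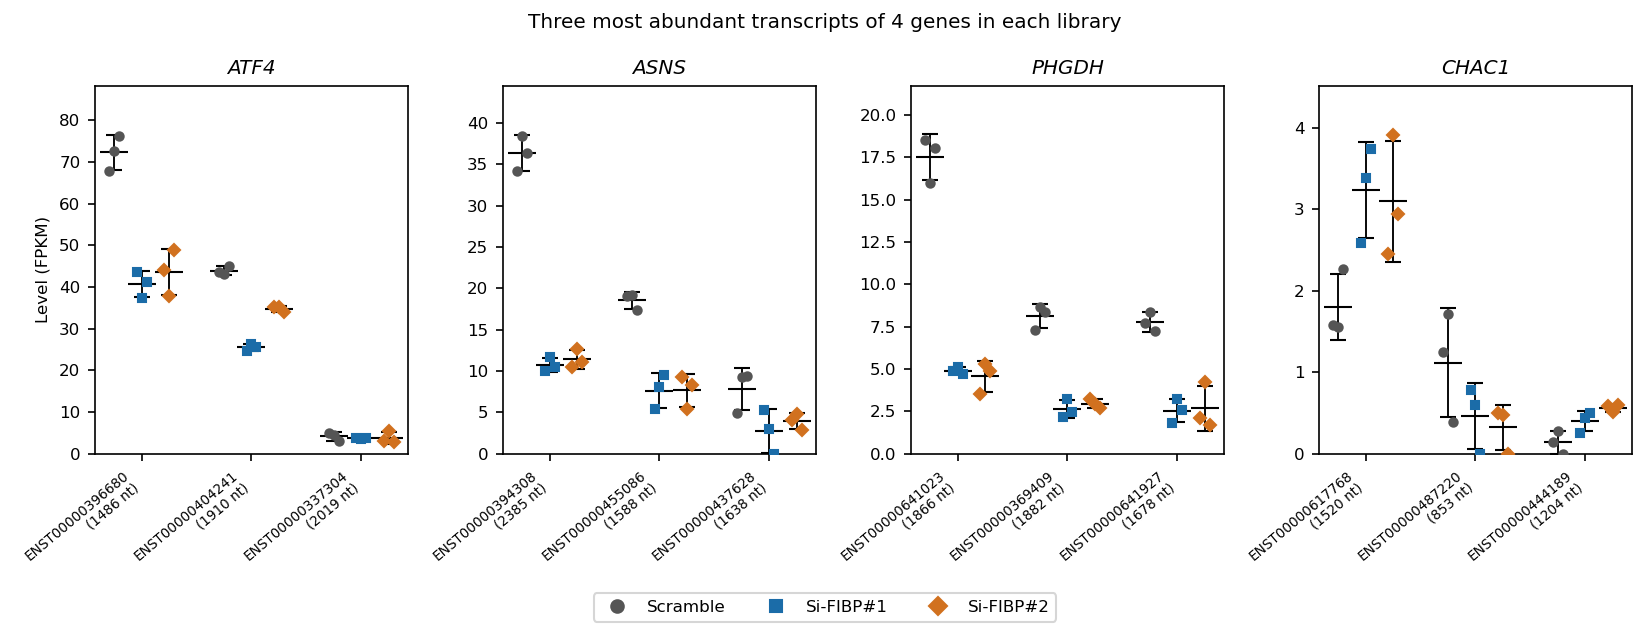
Level (FPKM, axes from 0) of the 3 most abundant transcripts of ATF4, ASNS, PHGDH and CHAC1 in the 9 libraries, with transcript lengths in nt; points are libraries and bars the mean ± SD of the 3 libraries of a group. The most abundant transcript of each of ATF4, ASNS and PHGDH is lower in all 6 depleted libraries, and ENST00000617768 of CHAC1 is higher in all 6. ENST00000337304 of ATF4 and ENST00000437628 of ASNS overlap between Scramble and depleted libraries.

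The mRNA levels of genes that act upstream in the pathway were read from lists of further genes. They do not report kinase activity or the phosphorylation of eIF2α, which were not measured here. Of the 4 eIF2α kinases, 2 passed higher after Si-FIBP#1 and 1 after Si-FIBP#2, where 27.8% and 31.1% of all genes passed higher. None passed lower. With only 4 genes, the count after Si-FIBP#2 was near the share of all genes. EIF2AK4 (GCN2, the sensor of uncharged tRNA) was 45.8 ± 2.23, 56.7 ± 2.72 and 53.0 ± 1.81 FPKM in Scramble, Si-FIBP#1 and Si-FIBP#2, and rose by 0.30 and 0.21 (log2, adjusted p = 0.00202 and 0.0141, the second not passing with median ratio scaling, at 0.11 with adjusted p = 0.173, or without Scramble replicate 1, with 0.052). EIF2AK1 (HRI, the heme-regulated kinase) rose by 0.22 after Si-FIBP#1 (adjusted p = 0.00712), and was at 0.010 after Si-FIBP#2 (adjusted p = 0.893). EIF2AK2 (PKR, the sensor of double-stranded RNA) was at 0.11 and 0.017 (adjusted p = 0.212 and 0.857), and EIF2AK3 (PERK, the kinase of the endoplasmic reticulum) at 0.30 and −0.13 (adjusted p = 0.247 and 0.636), neither passing, although EIF2AK3 passed after Si-FIBP#1 without Si-FIBP#1 replicate 1 (0.54, adjusted p = 0.0212). Of the 9 genes for eIF2 and eIF2B subunits and the cofactor PPP1R15B, 2 passed higher and 3 lower after Si-FIBP#1, and 3 higher and 2 lower after Si-FIBP#2. Of all genes, 27.8% and 19.9%, and 31.1% and 17.7%, passed in these directions, so the list was not set apart by its counts. The eIF2B subunit EIF2B1 fell from 31.6 ± 0.56 FPKM in Scramble to 18.6 ± 1.26 and 16.4 ± 0.23 FPKM (log2 −0.73 and −0.90, adjusted p = 1.27e-05 and 4.32e-06). Another subunit of the same exchange factor, EIF2B4, rose by 0.48 and 0.44 (adjusted p = 4.57e-04 and 7.89e-04).

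Among the partner factors of ATF4, 4 of 5 were tested. All 4 passed lower after Si-FIBP#1, where 19.9% of all genes did, and none passed after Si-FIBP#2, where 17.7% of all genes passed lower and all 4 differences were below 0. In the direct comparison of the siRNAs 0 of the 4 passed (limma, adjusted p = 0.0668 to 0.553), 3 of them with an unadjusted p below 0.05, so a difference between the siRNAs was not shown for them. The fifth, NUPR1, a stress-induced chromatin protein, was below the filter, with 0.91, 0.31 and 1.06 FPKM in Scramble, 0.02, 0.01 and 0.03 FPKM after Si-FIBP#1, and 0.01, 0.16 and 0.02 FPKM after Si-FIBP#2. With no filter NUPR1 passed lower with both siRNAs (adjusted p = 0.0101 and 0.0139). NUPR1 and CEBPG are named here outside the rule for naming genes. CEBPG, a dimer partner of ATF4, passed after Si-FIBP#1 under 16 of 18 settings and not without Scramble replicate 3 or Si-FIBP#1 replicate 1 (adjusted p up to 0.0652). ATF3 was 2.96, 3.85 and 3.05 FPKM in Scramble, 1.61, 1.89 and 2.10 FPKM after Si-FIBP#1, and 3.17, 2.48 and 2.63 FPKM after Si-FIBP#2. It fell by 0.58 after Si-FIBP#1 (adjusted p = 0.00433), with a difference of −0.19 for Si-FIBP#2 (adjusted p = 0.249). ATF5, a close relative of ATF4, was 31.05, 28.87 and 35.68 FPKM in Scramble, 9.83, 24.49 and 12.89 FPKM after Si-FIBP#1, and 26.40, 14.12 and 16.37 FPKM after Si-FIBP#2. All depleted samples lay below the controls, but with a wide spread. ATF5 fell by 1.07 after Si-FIBP#1 (adjusted p = 0.0155), and its difference of −0.76 after Si-FIBP#2 did not pass (adjusted p = 0.0597). The first was lost without Scramble replicate 3 or Si-FIBP#1 replicate 1 or 3 (adjusted p = 0.0506, 0.0542 and 0.0523), and the second passed without Si-FIBP#1 replicate 1 or 2 or Si-FIBP#2 replicate 1 (0.0389, 0.0154 and 0.022). The first was also lost with no filter (0.0565), and the second also passed under the filter of 5 FPKM (0.0466), with median ratio scaling (0.0427) and in a fit of the 2 groups compared (0.0192).

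Of 28 other target genes of ATF4, 26 were tested. After Si-FIBP#1, 16 passed lower and 4 higher, with 4 called lower and a median log2 fold change of −0.42, beside 19.9% of all genes passing lower, 27.8% higher, 3.11% called lower and a median of 0.073. After Si-FIBP#2, 9 passed lower and 4 higher, with 1 called in each direction and a median of −0.16, beside 17.7% of all genes passing lower, 31.1% higher, 2.13% called lower, 2.92% called higher and a median of 0.11. The calls after Si-FIBP#2 were thus near the share of all genes. The difference between the siRNAs was passed by 9 of the 26, 8 of them higher and 1 lower after Si-FIBP#2, where 15.4% of all genes passed, 9.58% higher and 5.80% lower. This list shares ATF3, ATF5, CEBPB and NUPR1 with the partner factors. SLC7A5, the importer of leucine and other large amino acids, was 54.82, 54.56 and 54.23 FPKM in Scramble, 17.50, 20.92 and 20.42 FPKM after Si-FIBP#1, and 19.64, 24.68 and 20.74 FPKM after Si-FIBP#2, and fell by 1.43 and 1.30 (log2, adjusted p = 2.83e-06 and 5.55e-06). MTHFD2, a mitochondrial enzyme of one-carbon metabolism that uses serine carbon, was 78.9 ± 3.74 FPKM in Scramble, 38.6 ± 1.51 FPKM after Si-FIBP#1 and 50.1 ± 3.50 FPKM after Si-FIBP#2. It fell by 1.01 and 0.65 (adjusted p = 2.59e-06 and 3.99e-05), and was 0.37 higher after Si-FIBP#2 than after Si-FIBP#1 (adjusted p = 0.00573). Its change after Si-FIBP#1 was −1.07 to −0.99 over the settings, so MTHFD2 was not called under every one.

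Other targets separated the siRNAs. GDF15, a secreted stress cytokine, was 2.19, 2.68 and 1.91 FPKM in Scramble, 0.48, 0.54 and 0.50 FPKM after Si-FIBP#1, and 2.64, 1.79 and 1.39 FPKM after Si-FIBP#2. The Si-FIBP#1 samples were far below the rest, while the others overlapped. GDF15 fell by 1.11 after Si-FIBP#1 (adjusted p = 5.26e-04), was at −0.16 after Si-FIBP#2 (adjusted p = 0.449), and differed by 0.94 between the siRNAs (adjusted p = 0.0064). At this low level the size depended on the pseudocount, and with 0.1 in place of 1 these differences were −1.95 after Si-FIBP#1 and 1.70 between the siRNAs. VLDLR, a lipoprotein receptor, went the other way, with 6.19 ± 0.32 FPKM in Scramble, 8.06 ± 0.32 FPKM after Si-FIBP#1 and 14.9 ± 1.00 FPKM after Si-FIBP#2. It rose by 0.33 and 1.15 (adjusted p = 0.0050 and 3.80e-06), and the siRNAs differed by 0.81 (adjusted p = 3.3e-04). SHMT2, the mitochondrial serine hydroxymethyltransferase, is named after its values were seen. It fell by 0.57 after Si-FIBP#1 (adjusted p = 1.42e-04), was at −0.12 after Si-FIBP#2 (adjusted p = 0.191), but passed lower with median ratio scaling (−0.21, adjusted p = 0.021) or without Si-FIBP#2 replicate 2 (adjusted p = 0.0402), and differed by 0.45 between them (adjusted p = 0.00325).

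**Figure D4:**
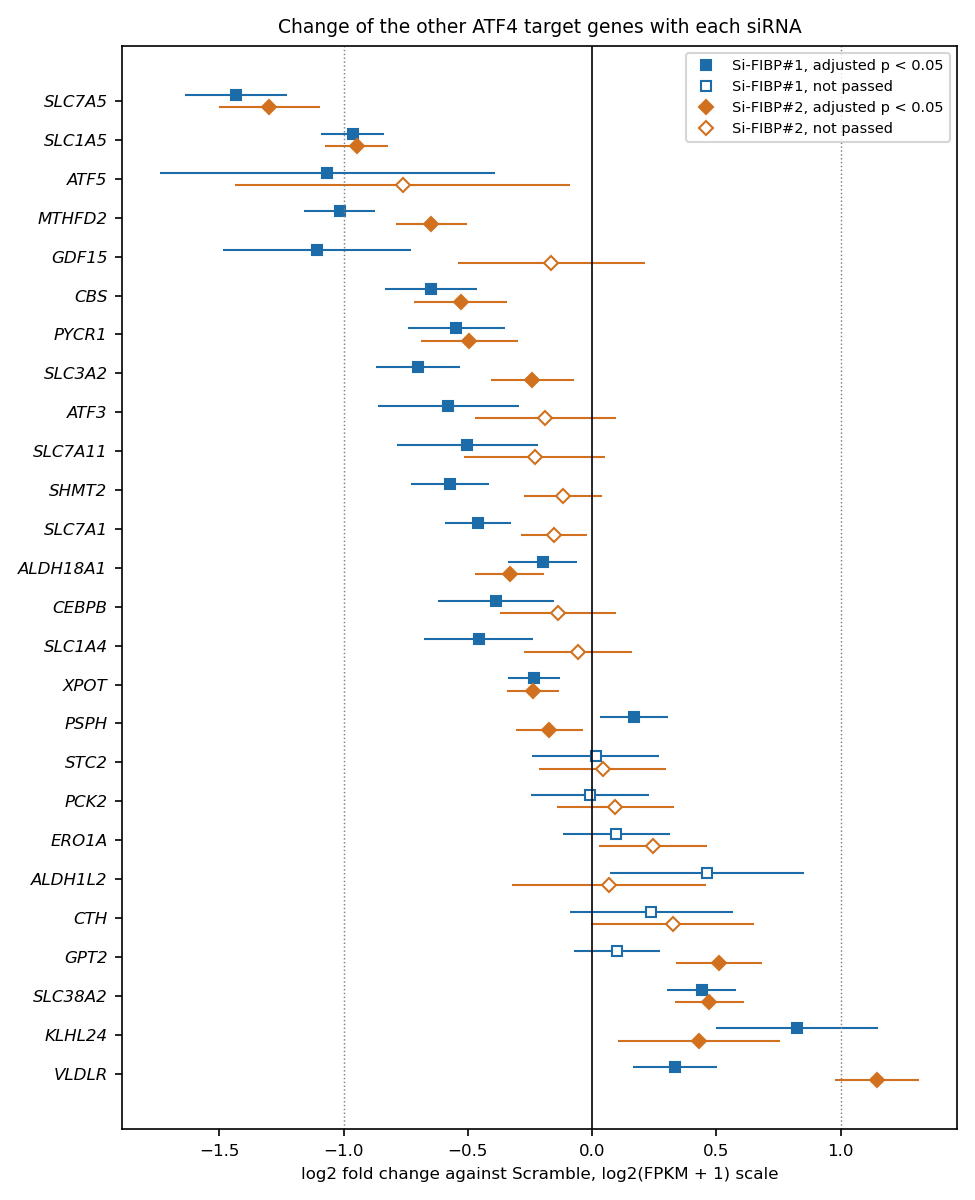
Log2 fold change against Scramble (log2(FPKM + 1) scale) of the 26 tested genes among the other ATF4 targets, ordered by the mean of both siRNAs; squares are Si-FIBP#1, diamonds Si-FIBP#2, lines 95% confidence intervals, filled symbols passed the test and dotted lines mark a 2-fold change. After Si-FIBP#1, 16 genes passed lower and 4 higher, and after Si-FIBP#2, 9 passed lower and 4 higher.

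For the other arms of the unfolded protein response, mRNA levels of 18 sensor, chaperone and degradation genes of the endoplasmic reticulum were read. After Si-FIBP#1, 7 passed higher and 1 lower, and after Si-FIBP#2, 8 passed higher and 1 lower, with medians of 0.18 and 0.17. Of all genes 27.8% and 31.1% passed higher and 19.9% and 17.7% lower, with medians of 0.073 and 0.11. Replicate 2 of Si-FIBP#2 was the highest of its group for 17 of the 18 genes, and the summed level was 1525 FPKM in it, beside 1252 and 1268 FPKM in the other 2 samples of the group and 1188 to 1199 FPKM in Scramble. Without it 8 genes passed higher and 2 lower after Si-FIBP#2, where 4187 and 2625 of 14785 genes did. The median was then 0.076, beside 0.10 for all genes. Between the siRNAs, 0 of the 18 passed higher and 1 lower, where 9.58% and 5.80% of all genes did. Without that library 0 passed higher and 4 lower, where 1630 and 1191 of 14785 genes did. That library was also the highest of its group for 7 of the 10 genes described first, and its part in these results was not tested beyond leaving it out. DNAJB9, a cochaperone, was 6.57 ± 0.38, 13.9 ± 1.42 and 15.8 ± 2.35 FPKM in Scramble, Si-FIBP#1 and Si-FIBP#2. It rose by 0.97 and 1.14 (log2, adjusted p = 9.08e-05 and 3.48e-05). ATF6, a sensor in the membrane of this compartment, rose by 0.63 and 0.68 (adjusted p = 4.57e-04 and 2.93e-04). Of these 18 genes, only DNAJB9 after Si-FIBP#2 was called, where 5.05% of all genes were. The mean level of DNAJB9 was 211% of Scramble after Si-FIBP#1 and 240% after Si-FIBP#2, and with pseudocount 0.1 its log2 change after Si-FIBP#1 was 1.06, beyond 2-fold as well. Of the 8 paralogs of the 10 genes, 6 were tested, of which 1 passed higher and 1 lower after Si-FIBP#1, and 3 passed higher and none lower after Si-FIBP#2, beside 27.8% of all genes higher and 19.9% lower, and 31.1% higher and 17.7% lower. The paralog that passed lower was ATF5, which is also counted among the partner factors and the other targets. The epithelial keratins KRT18 and KRT8 fell by 1.19 and 0.53 after Si-FIBP#1 and by 1.45 and 0.49 after Si-FIBP#2 (adjusted p = 2.01e-05, 3.35e-04, 6.88e-06 and 5.42e-04). With Ensembl transcripts only, KRT8 fell by 0.35 and 0.33.

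In the direct comparison of the siRNAs, 3 of the 10 genes passed, where 15.4% of all genes passed, 2 higher and 1 lower, beside 9.58% and 5.80%, and none was called, where 0.561% of all genes were called (0.267% higher, 0.294% lower). ATF4 and DDIT3 were higher after Si-FIBP#2 and PSAT1 was lower. The samples of the siRNAs did not overlap for 5 genes, 4 higher and 1 lower after Si-FIBP#2, where this held for 32.9% of all genes (20.4% higher, 12.5% lower). The median log2 difference of the 10 genes was 0.065, beside 0.040 for all genes. With both siRNAs against Scramble, 8 of the 10 passed, 2 higher (SESN2 and CHAC1) and 6 lower (ATF4, DDIT3, PPP1R15A, ASNS, PSAT1 and PHGDH), where 53.0% of all genes passed, 32.6% higher and 20.3% lower. ASNS and PHGDH were called lower and none higher, where 4.81% of all genes were called (2.36% higher, 2.45% lower). Summed with AC079781.5, ASNS changed by −0.81 (log2) and was not called. By level alone, the 6 depleted samples of 5 genes were all below the 3 controls and those of 2 genes, TRIB3 and SESN2, all above them, where 42.9% of all genes had no overlap (26.3% higher, 16.5% lower).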

How the data were processed

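Poly(A) RNA of 9 H1299 samples was sequenced in pairs. Tables of FPKM per transcript, rounded to 2 decimals, were deposited for each sample. The unit was inferred from the values, as no source used here names it. The submitters' processing notes name HISAT2 and StringTie without versions, and the genome build is not given in the sources used here. Transcript FPKM were summed per gene identifier, including assembled transcripts (5.45% to 5.84% of each sum). Depth, estimated from the steps of low FPKM in 8100 genes with a single transcript, is approximate. The precision of a gene therefore rests on the replicates.

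Genes that reached 1 FPKM in 3 or more samples were fitted by limma 3.58.1 (R 4.3.3, empirical Bayes with trend) on log2(FPKM + 1), with all 9 samples in 1 fit and Benjamini-Hochberg adjustment over 14985 genes. In data simulated for Si-FIBP#1 against Scramble, 45% of changes of 0.5 (log2, 14149 genes) and 94% of changes of 1.5 (14143 genes) were recovered. For Si-FIBP#2 these were 44.5% (14141 genes) and 91.5% (14126 genes). Each simulation changed 200 genes, and 8, 11, 5 and 12 unchanged genes passed falsely in these 4 simulations, in the same order. In the data 47.7% and 48.8% of genes passed. The adjustment depends on the share of changed genes, so these figures do not give the recovery or the false passes in the data.

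The 10 genes and the lists were chosen with earlier results of these data known. Named beside them were genes called with either siRNA, or, for a list with fewer than 2 such genes, the 2 with the largest mean change, and all eIF2α kinases. Outside this rule, CEBPG, NUPR1, PSPH, SESN1, SHMT2 and genes overlapping the 10 were also named. Alternatives were other scalings (TPM, median ratio), pseudocount 0.1, no filter or 5 FPKM, Ensembl transcripts only, a fit of the groups compared only (both siRNA groups as 1 group where they were averaged), replicate number as a block, each sample left out, and ASNS summed with AC079781.5. Replicate numbers were not taken as pairs in the main fit. Gene positions are from GENCODE release 29 (GRCh38) and promoters from RefSeq (GRCh38.p14). Python 3.11.15, numpy 2.4.6, pandas 2.3.3 and matplotlib 3.10.9 were used.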

Additional observations from a re-analysis of the deposited data

Results flagged for a closer look

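The effects of the siRNAs differed by their direct test for 3 of the 10 genes, where 15.4% of all genes passed. On the log2(FPKM + 1) scale, Si-FIBP#2 minus Si-FIBP#1 was 0.2248 for ATF4, 0.4291 for DDIT3 and −0.298 for PSAT1 (limma, adjusted p = 0.0176, 0.00312 and 0.0114). The ATF4 difference passed under 13 of 18 settings (adjusted p = 0.0507 to 0.0714 under the other 5) and those of DDIT3 and PSAT1 under 18 of 18. In each of the 3 genes the 3 samples of one siRNA lay entirely on one side of the 3 samples of the other, as in 32.9% of all genes. The same test was passed by some of the other named genes, with 0.3679 for MTHFD2, 0.9426 for GDF15, 0.8128 for VLDLR, −0.2116 for EIF2AK1, 0.4542 for SHMT2, −0.3411 for PSPH and 0.709 for SESN1 (adjusted p = 0.00573, 0.0064, 3.3e-04, 0.0269, 0.00325, 0.00626 and 0.00203). MTHFD2, GDF15 and VLDLR were named because they were called, and SHMT2, PSPH and SESN1 after their values were seen. Their passing is therefore no independent support for a difference between the siRNAs. The EIF2AK1 difference did not pass without Si-FIBP#1 replicate 1 or 2 or without Si-FIBP#2 replicate 1 or 3 (adjusted p = 0.0843, 0.0802, 0.0855 and 0.101), nor with TPM scaling (0.0677) or a fit of both siRNA groups only (0.0669), and that of PSPH did not pass with Ensembl transcripts only (0.278). FIBP itself differed by 0.13 (95% interval −0.28 to 0.54, adjusted p = 0.686).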

How the results depend on the processing

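The decreases of ATF4, ASNS, PSAT1 and PHGDH and the rise of SESN2 passed with both siRNAs under every setting run. Leaving out replicate 2 of Si-FIBP#2 raised the genes of the 10 that passed after Si-FIBP#1 from 6 to 9 and those called after Si-FIBP#2 from 2 to 3. Of all genes, 7602 of 14785 then passed after Si-FIBP#1, beside 7146 of 14985 with all samples. After Si-FIBP#2, 734 of 14785 were then called, beside 757 of 14985. Over all tested genes, 848 were called after Si-FIBP#1, 757 after Si-FIBP#2, 721 with both together and 84 between the siRNAs, and a pseudocount of 0.1 changed this to 1498, 1411, 1418 and 172. It called 849 higher and 649 lower after Si-FIBP#1 and 953 and 458 after Si-FIBP#2, beside 382 and 466, and 438 and 319. Median ratio scaling called 345 higher and 417 lower after Si-FIBP#2. Leaving out 1 sample gave 73 to 128 calls between the siRNAs, the highest without replicate 2 of Si-FIBP#2. The cause was not tested.

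Values that changed sign were small and did not pass. Median ratio scaling turned DDIT4, EIF2AK1 and EIF2AK2 to −0.0528, −0.0858 and −0.0722 after Si-FIBP#2, and Ensembl transcripts only turned EIF2AK1 to −0.0496. TPM scaling turned the difference between the siRNAs to 0.0061 for TRIB3 and 0.02 for PHGDH. Leaving out 1 sample gave −0.0399 to 0.0291 for DDIT3, −0.0314 to 0.1426 for DDIT4, −0.0413 to 0.0361 for EIF2AK1, −0.0201 to 0.0499 for EIF2AK2 and −0.2208 to 0.0272 for EIF2AK3 after Si-FIBP#2, −0.136 to 0.0233 for DDIT4 averaged over both siRNAs, and, between the siRNAs, −0.1276 to 0.0172 for TRIB3, −0.1636 to 0.0242 for CHAC1 and −0.102 to 0.0639 for PHGDH. Of all values for the 10 genes under alternatives, 631 kept direction and side of the threshold, 18 newly passed, 15 no longer passed and 16 changed sign. CHAC1 was not tested under the filter of 5 FPKM.

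Correlations of the deviations from group means were weak, −0.0568 to 0.1025 for samples of the same replicate number and −0.1417 to 0.049 for other numbers. The ranges overlapped, but the highest value was of the same number. Whether the numbers pair the samples was not tested further. With the replicate number as a block, 853, 760, 725 and 88 genes were called in the comparisons above. CHAC1 after Si-FIBP#1 (limma, adjusted p = 0.034) and TRIB3 with both siRNAs (adjusted p = 0.048) newly passed. Among the 10 genes no other pass or call changed. CHAC1 had the fewest estimated fragments of the 10 genes, and whether depth limits its tests was not examined.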
